A study of Arabidopsis thaliana with 12 samples.

Results

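The embryo proper and the suspensor of Arabidopsis thaliana embryos at the 32-cell stage were compared across all genes. The comparison rests on 6 of the 12 libraries of the series, chosen by their titles: 3 libraries of the embryo proper (32E) and 3 of the suspensor (32S). The other 6 libraries hold the apical cell (AC) and the basal cell (BC) of the earlier embryo, from which the embryo proper and the suspensor mainly descend. Both 32-cell groups came from plants of the Columbia-0 accession (Col in the labels), grown in a greenhouse under long days, and the labels give no transgene or treatment. Embryos were isolated by hand, and their apical and basal parts were then separated with a laser microdissection system. Each library started from a small pool of such parts from several embryos, whose mRNA was amplified into cDNA with a SMART-Seq kit. The values are FPKM, read fragments scaled by transcript length and by the mapped reads of the library, for each of 32399 genes. The study's methods give about the same sequencing yield for every library, but its supplement lists read totals that differ between libraries, also within 32S. The values used here carry no read counts, so no counting interval can be given, and a value of 0 is written as listed at 0.

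The suspensor is a short file of cells that holds the embryo proper inside the seed, passes nutrients and hormones to it, and later dies by a programmed death. The embryo proper divides rapidly at this stage, lays down its outer cell layer (the protoderm) and begins to set apart the future shoot apex, vascular and ground tissue. The uppermost suspensor cell becomes the hypophysis, the founder of the root tip. In such pooled samples, fewer cells of a type and less RNA per cell cannot be told apart.

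Markers of the dissected domains mostly followed the labels. The homeobox gene WOX2 (AT5G59340), which acts in the apical lineage, was at 121, 117 and 126 FPKM in 32E, against 0, 1.98 and 0.42 FPKM in 32S. WOX8 (AT5G45980), its counterpart in the basal lineage, was listed at 0 in all 3 32E libraries and at 446, 388 and 452 FPKM in 32S. The groups did not overlap for either gene. Among the embryo proper markers, DRN, ATML1 (AT4G21750), PDF1 (AT2G42840) and LEC2 (AT1G28300) were also higher in 32E, the shoot meristem gene STM was at most 0.28 FPKM in any of the 6 libraries, and PDF2 (AT4G04890) had 93.7, 100.2 and 121 FPKM in 32E, against 99.98, 129 and 111 FPKM in 32S. Among the basal markers, WOX9 (AT2G33880), PIN7 (AT1G23080), HDG11 and WRKY2 (AT5G56270) were higher in 32S. HDG12 (AT1G17920), placed with the basal markers, went the other way, with 93.2, 80.8 and 68.3 FPKM in 32E, against 18.1, 26.9 and 22.6 FPKM in 32S. Markers of surrounding tissue were low: the summed FPKM of 11 endosperm markers was 1.11 to 1.33 in 32E and 13.5 to 17.9 in 32S, nearly all of it in 32S from the formin gene FH5. For 13 seed coat markers the sum was 34.7 to 46.2 in 32E and 4.62 to 12.6 in 32S, nearly all from MUM4 and STK. The part of such tissue in the results was not tested. The 6 egg cell and synergid markers summed to 1.80 to 3.51 in 32E and 0.20 to 0.65 in 32S.

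The 32S libraries were not alike in their spread. Among 11957 genes with a mean above 5 FPKM in 32S, the SD of the log2 difference was 0.253 between replicates 1 and 3, 0.605 between replicates 2 and 3, and 0.784 between replicates 1 and 2. The pairs of 32E replicates had SDs of 0.41 to 0.498. In 3352 of those genes, 32S replicates 1 and 2 differed by more than 50% of their mean, and replicate 3 lay between them in 3232 (96.4%). The same share was 55.5 to 68.2% for the 32E libraries and at most 71% for any other library of the series. A mean of replicate 1 (weight 0.74) and replicate 2 (weight 0.26) came within an SD of 0.125 (log2) of replicate 3, closer than for any other library of the 12, where this SD was 0.253 to 0.605. Of 46 genes listed at 0 in replicate 1 and above 5 FPKM in replicate 2, all 46 were above 0 in replicate 3, and of 53 genes with the opposite pattern 52 were. The 3 libraries of 32S may thus hold fewer than 3 independent samples, and p-values then measure only the spread between these libraries. The labels do not say that same-numbered libraries share embryos. Without 32S replicate 3, 3897 genes were called higher in 32E and 3546 higher in 32S, of which 3838 and 3519 were also called with it. Replicate 2 stood apart from the other 32S replicates, with 15.6% of its FPKM in its 20 highest genes, and it is named below where it decides a value.

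Of the 32399 genes, 17060 passed the filter on low values, FPKM above 1 in at least 3 of the 12 libraries. A gene was called when its limma adjusted p was under 0.01 and its log2 fold change on log2(FPKM + 1) was at least 1 in size. The fold change is 32E over 32S throughout, so a positive value means higher in the embryo proper, and its SE follows the sign ±. By this rule 4053 genes (23.8% of those tested) were higher in 32E, 3854 (22.6%) were higher in 32S and 9153 had no call. The median log2 fold change of all tested genes was 0.05 and the median of its absolute size was 1.04. The 3 libraries of one group lay wholly above those of the other in 72.0% of the tested genes, 37.7% with 32E above and 34.3% with 32S above. Counts were similar at moderate folds, with 1984 genes higher in 32E and 1866 higher in 32S at a log2 fold change between 1 and 2. At 6 and over, the counts were 72 and 165. Listed at 0 in all 32S libraries but above 1 FPKM in all 32E libraries were 478 genes, 35 of them with a mean above 50 FPKM. The opposite pattern was found in 198 genes, 40 of them with a mean above 50 FPKM.

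**Figure D1:**
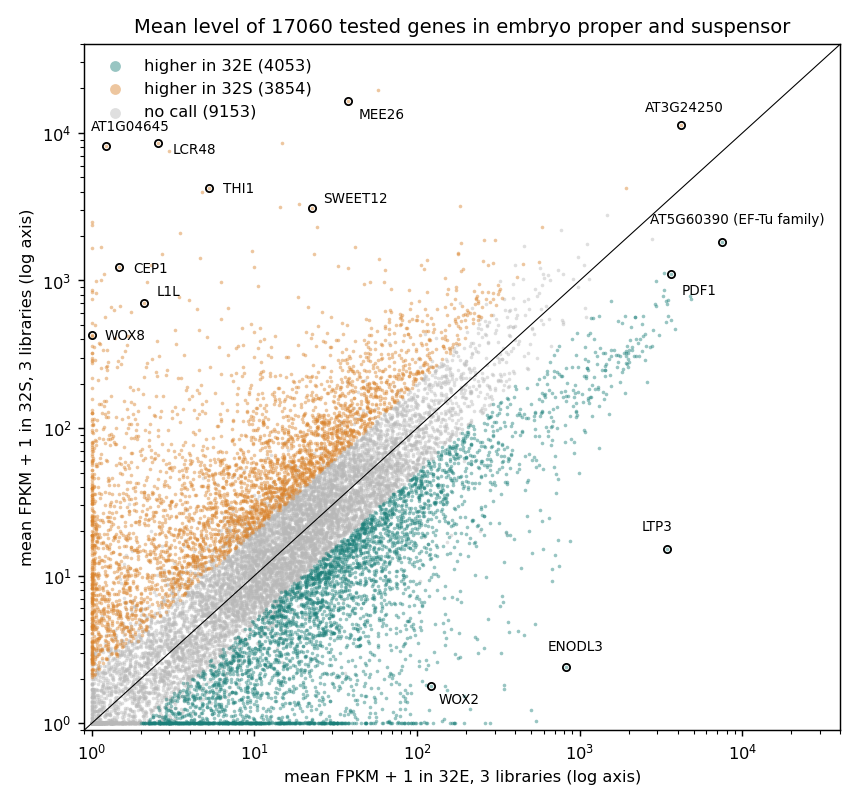
Mean FPKM + 1 of each of the 17060 tested genes in 32E (horizontal log axis) and 32S (vertical log axis), 3 libraries each, coloured by call, with the line of equal level. Genes such as LTP3 and ENODL3 lie far below the line and MEE26, THI1, CEP1 and L1L far above it, and the most abundant 32S transcripts reach higher levels than the most abundant 32E ones.

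The genes with the largest folds in 32E encoded a Dof zinc finger protein, cell surface proteins and a water channel. AT5G66940, the Dof factor, had 622, 451 and 531 FPKM in 32E, against 0.13, 0 and 0 FPKM in 32S (log2 fold change 8.99 ± 0.25, adjusted p = 1.09e-10). ENODL3 (AT4G28365), an early nodulin-like protein of the cell surface, had 745, 826 and 889 FPKM in 32E, against 0.65, 2.58 and 0.95 FPKM in 32S (log2 fold change 8.50 ± 0.26, adjusted p = 1.61e-10). The related ENODL15 (AT4G31840) had means of 342 and 0.82 FPKM in 32E and 32S. LTP3 (AT5G59320), a lipid transfer protein, had 3148, 3592 and 3527 FPKM in 32E, against 16.6, 12.1 and 13.8 FPKM in 32S (log2 fold change 7.83 ± 0.14, adjusted p = 5.22e-12). The groups were far apart for all of these genes. AT1G04880, an HMG box protein with an ARID domain, had 275, 273 and 296 FPKM in 32E and was listed at 0 in all 3 32S libraries (adjusted p = 4.32e-07). AT3G15680, a zinc finger protein, had 148, 309 and 321 FPKM in 32E and was listed at 0 in all 3 32S libraries. The remaining genes of the 10 with the largest folds were the glycine-rich protein AT4G29020, PIP1C (AT1G01620), IAA18 (AT1G51950) and the uncharacterized AT5G16250. By level, the 10 most abundant 32E transcripts held AT5G60390, an elongation factor of the EF-Tu family, 7 ribosomal protein genes, the glycine-rich AT3G24250 and PDF1.

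Many of the largest folds in 32S belonged to small or secreted proteins. AT1G04645, of the family of S1 self-incompatibility proteins of poppy, had 0.18, 0.48 and 0 FPKM in 32E, against 5806, 12111 and 6612 FPKM in 32S (log2 fold change -12.65 ± 0.39, adjusted p = 1.70e-10). LCR48 (AT3G48231), a low-molecular-weight cysteine-rich peptide, had 3.14, 1.04 and 0.46 FPKM in 32E, against 6705, 11524 and 7273 FPKM in 32S (log2 fold change -11.80 ± 0.35, adjusted p = 1.28e-10). AT1G09370, an inhibitor of the invertase and pectin methylesterase type, had 2.50, 1.71 and 1.73 FPKM in 32E, against 5671, 10235 and 6551 FPKM in 32S (log2 fold change -11.26 ± 0.19, adjusted p = 4.09e-12). In all of these, 32S replicate 2 was the highest library, and no 32E library came near any 32S library. The knottin AT1G47540, the thionin AT5G63085 and the putative lipoprotein AT5G46871 were listed at 0 in every 32E library and had 32S means of 2373, 2500.2 and 1652 FPKM. THI1 (AT5G54770), which makes the thiazole part of thiamine, had 0.69, 9.22 and 2.79 FPKM in 32E, against 4056, 4491 and 4232 FPKM in 32S (log2 fold change -10.04 ± 0.46, adjusted p = 3.61e-09), and it was even across the 32S libraries. AT4G33820 (a glycosyl hydrolase), MLP28 (a major latex protein-like protein) and AT1G65970 (a thioredoxin-dependent peroxidase) completed the 10 largest folds. The most abundant transcripts of all were AT4G33145, uncharacterized, and MEE26 (AT2G34870), a hydroxyproline-rich glycoprotein, with 32E means of 56.6 and 36.4 FPKM against 32S means of 19387 and 16562 FPKM. The fourth, AT4G04090, a BTB/POZ domain protein, had 32.9, 2.60 and 5.75 FPKM in 32E, against 7047, 10805 and 7922 FPKM in 32S (log2 fold change -9.82 ± 0.62, adjusted p = 5.37e-08). AT3G24250 was among the 10 most abundant in both groups, with 3907, 4173 and 4402 FPKM in 32E, against 9226, 14697 and 10175 FPKM in 32S (log2 fold change -1.42 ± 0.21, adjusted p = 8.82e-05). GRP7 (AT2G21660), an RNA-binding protein of the circadian clock, was also among the highest of 32S, with 1651, 1795 and 2334 FPKM in 32E, against 4603, 3954 and 4116 FPKM in 32S (adjusted p = 1.02e-05).

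**Figure D2:**
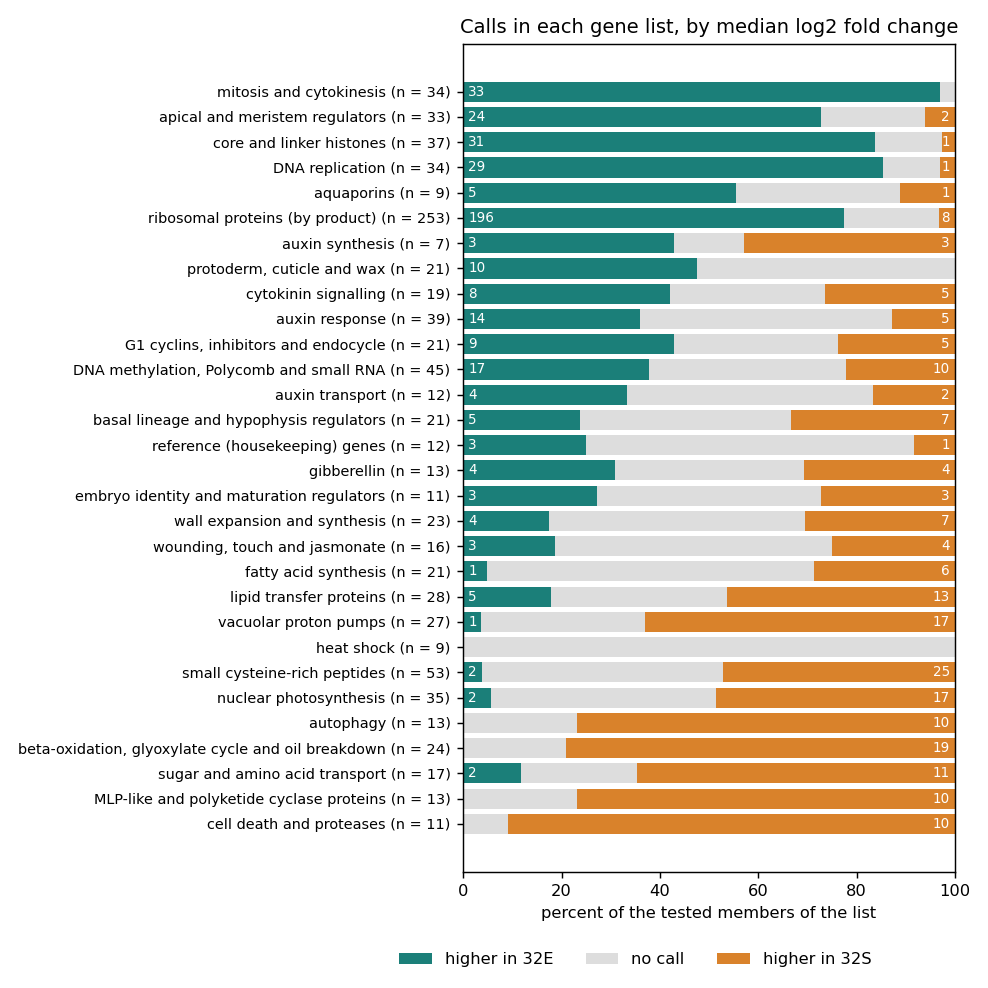
Share of the tested members of each gene list and family with at least 7 tested members (horizontal axis, percent) that were called higher in 32E, had no call or were called higher in 32S, with lists ordered from the highest to the lowest median log2 fold change and the number of calls printed in the bars. Mitosis (33 of 34), replication (29 of 34) and histone genes (31 of 37) sit at the 32E end. The list of cell death genes, proteases and their inhibitors (10 of 11) and lipid breakdown (19 of 24) sit at the 32S end. All tested genes had shares of 23.8% higher in 32E and 22.6% higher in 32S.

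Regulators of the apical domain and meristems were the patterning group with the most calls in 32E. Of 42 listed genes, 33 were tested, 24 were higher in 32E, 2 were higher in 32S and 7 had no call, with a median log2 fold change of 2.83 against 0.05 over all genes. All tested genes had shares of 23.8% higher in 32E and 22.6% higher in 32S. HAN (AT3G50870), a GATA factor that positions the boundary between the apical and basal domains, had 194, 156 and 152 FPKM in 32E and was listed at 0 in all 3 32S libraries (adjusted p = 1.01e-11). ZPR3 (AT3G52770), a small zipper peptide that binds HD-ZIP III factors, had 183, 155 and 171 FPKM in 32E and was listed at 0 in all 3 32S libraries. PHB (AT2G34710), a HD-ZIP III factor of the adaxial and apical domain, had 72.6, 82.0 and 96.5 FPKM in 32E, against 1.36, 2.40 and 1.44 FPKM in 32S (log2 fold change 4.96 ± 0.27, adjusted p = 1.22e-08). Its relatives REV and CNA were also higher in 32E. TMO5 (AT3G25710), a bHLH factor of vascular founder cells, had 38.4, 54.6 and 49.9 FPKM in 32E and was listed at 0 in all 3 32S libraries. Its partner LHW (AT2G27230) had 40.1, 38.8 and 43.9 FPKM in 32E, against 11.1, 14.7 and 12.8 FPKM in 32S (log2 fold change 1.60 ± 0.16, adjusted p = 2.92e-06). SHR (AT4G37650), the GRAS factor that moves from vascular to ground tissue, had 24.2, 27.0 and 25.7 FPKM in 32E and was listed at 0 in all 3 32S libraries. WUS (AT2G17950), the stem cell regulator, was low but measured in every 32E library, at 9.97, 10.2 and 5.54 FPKM, and was listed at 0 in every 32S library. The list median includes such genes, whose fitted value depends on the pseudocount.

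A minority of this list went the other way or had no call. AS2 (AT1G65620), a LOB-domain factor of leaf polarity, was listed at 0 in all 3 32E libraries and at 31.6, 10.08 and 26.0 FPKM in 32S (adjusted p = 1.56e-07). JKD (AT5G03150), a zinc finger partner of SHR, had 0.07, 1.68 and 0.50 FPKM in 32E, against 5.05, 13.9 and 8.16 FPKM in 32S (log2 fold change -2.53 ± 0.35, adjusted p = 4.47e-05). BBM (AT5G17430), an AP2 factor that drives embryo formation when overproduced, had 109, 118 and 129.7 FPKM in 32E, against 129.5, 105 and 133 FPKM in 32S, with overlapping groups, and SCR (AT3G54220), the ground tissue partner of SHR, had 37.9, 43.7 and 37.4 FPKM in 32E, against 50.2, 38.6 and 48.6 FPKM in 32S. The root factors PLT1 (AT3G20840) and PLT2 (AT1G51190) had higher values in 32E, PLT1 at 95.1, 102 and 117 FPKM against 38.1, 52.7 and 41.7 in 32S without a call (adjusted p = 0.0168) and PLT2 at 32.1, 39.2 and 52.3 FPKM against 14.0, 23.2 and 16.0 in 32S with one (adjusted p = 0.00116), which was lost without 32E replicate 3 (log2 fold change 0.99, adjusted p = 0.00679).

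Genes of the outer cell layer were called in 32E or had no call. Of 25 listed protoderm, cuticle and wax genes, 21 were tested, 10 were higher in 32E, none was higher in 32S by limma (0 at an unadjusted p under 0.05) and 11 had no call (median 1.06). All tested genes had shares of 23.8% higher in 32E and 22.6% higher in 32S. LACS2 (AT1G49430) and DCR, enzymes of cutin synthesis, had the largest folds, LACS2 with 54.1, 82.5 and 82.5 FPKM in 32E, against 1.98, 4.98 and 2.27 FPKM in 32S (log2 fold change 4.23 ± 0.28, adjusted p = 6.91e-08). ATML1, a HD-ZIP IV factor of epidermal identity, had 102, 91.1 and 93.1 FPKM in 32E, against 14.0, 32.5 and 19.2 FPKM in 32S (log2 fold change 2.15 ± 0.22, adjusted p = 3.89e-06). PDF1, a wall protein of the protoderm, had 3514, 4033 and 3297 FPKM in 32E, against 503, 1941 and 897 FPKM in 32S (log2 fold change 1.91 ± 0.48, adjusted p = 0.0041). Its 32S replicates were far apart. The call was lost without any single library other than 32S replicate 2, with an adjusted p of 0.0139, 0.0174 and 0.0118 without 32E replicates 1, 2 and 3, and of 0.0184 and 0.0146 without 32S replicates 1 and 3. LTPG1 (AT1G27950), a surface lipid transfer protein, had 581, 775 and 632 FPKM in 32E, against 187, 605 and 278 FPKM in 32S and no call (adjusted p = 0.0127), but was called without 32S replicate 2 (log2 fold change 1.52, adjusted p = 4.62e-05). FDH (AT2G26250), an enzyme of very long chain fatty acids, had 146, 155 and 145 FPKM in 32E, against 141, 319 and 198 FPKM in 32S, and here too 32S replicate 2 was the highest of the 3. The close relative of ATML1, PDF2, and the wax transporter ABCG11 had overlapping groups.

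Among regulators of embryo identity, relatives lay on opposite sides. Of 11 tested genes, 3 were higher in 32E, 3 were higher in 32S and 5 had no call, shares near the 23.8% and 22.6% of all tested genes, so the counts do not set this list apart. LEC2 and ABI3 (AT3G24650), B3 factors of embryo and seed maturation, were higher in 32E: LEC2 had 66.5, 73.6 and 69.0 FPKM in 32E, against 0.87, 1.5 and 1.05 FPKM in 32S (log2 fold change 5.05 ± 0.12, adjusted p = 2.97e-11). ABI3 had 13.8, 20.9 and 24.3 FPKM in 32E, against 3.44, 3.40 and 3.01 FPKM in 32S (log2 fold change 2.24 ± 0.21, adjusted p = 1.56e-06). ABI4 (AT2G40220), an AP2 factor of abscisic acid responses, had 45.9, 43.4 and 50.3 FPKM in 32E, against 0.52, 0 and 1.05 FPKM in 32S (log2 fold change 5.02 ± 0.32, adjusted p = 5.61e-08). The third B3 factor, FUS3 (AT3G26790), went the other way, with 3.5, 13.2 and 5.76 FPKM in 32E, against 428, 279 and 394 FPKM in 32S (log2 fold change -5.58 ± 0.34, adjusted p = 4.01e-08). L1L (AT5G47670), an NF-YB subunit, had 0.87, 1.5 and 0.96 FPKM in 32E, against 784, 590.4 and 732 FPKM in 32S (log2 fold change -8.38 ± 0.32, adjusted p = 8.81e-10). Its relative LEC1 (AT1G21970) was abundant on both sides, with 308, 303 and 331 FPKM in 32E, against 731, 919.9 and 774 FPKM in 32S (log2 fold change -1.35 ± 0.11, adjusted p = 3.70e-07). The 32S libraries were above every 32E library for all of FUS3, L1L and LEC1.

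Among 21 tested regulators of the basal lineage and hypophysis, 5 were higher in 32E and 7 higher in 32S, against 23.8% and 22.6% of all tested genes. With a pseudocount of 0.1 the 32S count was 4. WIP4 (AT3G20880) and NTT (AT3G57670) are zinc finger factors that act together in the founding of the root meristem. WIP4 had 0.09, 0.93 and 0.23 FPKM in 32E, against 89.5, 152 and 114 FPKM in 32S (log2 fold change -6.41 ± 0.25, adjusted p = 1.11e-09). NTT had 0, 0.17 and 0 FPKM in 32E, against 75.9, 82.9 and 83.9 FPKM in 32S (log2 fold change -6.28 ± 0.16, adjusted p = 5.53e-11). WOX9 was present in both domains and higher in 32S, with 96.2, 75.9 and 105 FPKM in 32E, against 244, 361 and 271 FPKM in 32S (log2 fold change -1.64 ± 0.28, adjusted p = 2.32e-04). WOX5 (AT3G11260), the homeobox gene of the hypophysis descendants, had 8.07, 2.06 and 1.25 FPKM in 32E, against 22.1, 87.3 and 37.1 FPKM in 32S (log2 fold change -3.43 ± 0.71, adjusted p = 0.00114). Its 32S replicate 2 was far above the others. WRKY2, an activator of WOX8 in the zygote, had 2.05, 3.03 and 5.07 FPKM in 32E, against 24.6, 29.4 and 24.9 FPKM in 32S (log2 fold change -2.69 ± 0.54, adjusted p = 8.15e-04). The kinase cascade that acts in the zygote was mostly without a call: YDA (AT1G63700), MKK4, MKK5, MPK3 and MPK6 had none. YDA was called higher in 32E only without 32S replicate 2 (log2 fold change 1.05, adjusted p = 1.44e-04). The receptor kinases ERL1 (AT5G62230) and ERL2 (AT5G07180) were on the 32E side, where ERL1 had 74.4, 84.5 and 80.4 FPKM, with 0 listed in every 32S library. ERL2 had 80.2, 88.7 and 97.7 FPKM in 32E, against 2.07, 7.16 and 3.36 FPKM in 32S (log2 fold change 4.23 ± 0.34, adjusted p = 4.44e-07), while their relative ER (AT2G26330) had 10.9, 13.2 and 13.3 FPKM in 32E, against 15.0, 23.5 and 17.7 FPKM in 32S and no call.

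Auxin genes were divided between the domains by member. Auxin is made from tryptophan by TAA1 (AT1G70560) and then by the YUC enzymes. TAA1 had 38.3, 36.0 and 35.0 FPKM in 32E and was listed at 0 in all 3 32S libraries (adjusted p = 3.63e-08), and YUC1 and YUC4 were higher in 32E. YUC3 (AT1G04610), YUC5 and YUC9 were listed at 0 in every 32E library, and YUC3 was the most abundant of all auxin synthesis genes, at 325, 315 and 329 FPKM in 32S (adjusted p = 1.27e-11). Among the transporters, the efflux carrier PIN7 had 0.81, 4.70 and 1.98 FPKM in 32E, against 85.5, 138 and 103 FPKM in 32S (log2 fold change -5.10 ± 0.36, adjusted p = 1.21e-07). The influx carriers AUX1 (AT2G38120), LAX1 and LAX2 were all higher in 32E, AUX1 with 63.2, 65.2 and 69.4 FPKM in 32E, against 0.07, 0 and 0 FPKM in 32S (log2 fold change 6.03 ± 0.19, adjusted p = 2.27e-10). PIN3 and PIN4 (AT2G01420) had no call, PIN4 with 6.78, 13.4 and 10.5 FPKM in 32E, against 15.1, 29.99 and 18.8 FPKM in 32S.

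The response genes of auxin were higher in 32E in 14 of 39 tested cases and higher in 32S in 5, with 20 not called (median 0.67). Over all tested genes the shares were 23.8% and 22.6%. MP (AT1G19850), the auxin response factor that acts in vascular and root initiation, was present in both, with 118, 148 and 186 FPKM in 32E, against 33.1, 47.3 and 37.6 FPKM in 32S (log2 fold change 1.90 ± 0.21, adjusted p = 7.62e-06). BDL (AT1G04550), its repressor, had 54.5, 61.0 and 46.3 FPKM in 32E, against 21.1, 19.8 and 20.9 FPKM in 32S (log2 fold change 1.34 ± 0.31, adjusted p = 0.00238), a call lost without 32E replicate 2 (log2 fold change 1.24, adjusted p = 0.0124). IAA18, another Aux/IAA repressor, had 179.7, 204 and 195 FPKM in 32E and was listed at 0 in all 3 32S libraries, and IAA26 was likewise at 0 there. On the suspensor side, IAA10 (AT1G04100) had 14.1, 11.0 and 1.49 FPKM in 32E, against 80.5, 75.0 and 75.6 FPKM in 32S (log2 fold change -3.35 ± 0.70, adjusted p = 0.00121). The repressive response factors ARF10 and ARF16 (AT4G30080) were also higher in 32S. ARF16 had 0, 0.03 and 0 FPKM in 32E, against 46.2, 13.3 and 40.4 FPKM in 32S (log2 fold change -4.91 ± 0.52, adjusted p = 4.89e-06), with 32S replicate 2 the lowest of its group. The abundant IAA8 (AT2G22670) had 281, 327 and 308 FPKM in 32E, against 507, 594 and 553 FPKM in 32S, a difference below the fold threshold.

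Cytokinin signalling was divided as well. Of 19 tested genes 8 were higher in 32E and 5 higher in 32S, against 23.8% and 22.6% of all tested genes. The 32S count is thus near its share. The type-B response regulators ARR1, ARR10 and ARR12, which activate targets, were higher in 32E, as were the type-A regulators ARR4 and ARR5, which dampen the pathway. The type-A regulator ARR3 (AT1G59940) had 2.37, 2.0 and 2.51 FPKM in 32E, against 285, 506 and 327 FPKM in 32S (log2 fold change -6.78 ± 0.79, adjusted p = 1.08e-05). The phosphotransfer protein AHP2 (AT3G29350) had 5.80, 5.83 and 3.23 FPKM in 32E, against 66.5, 71.8 and 66.8 FPKM in 32S (log2 fold change -3.58 ± 0.18, adjusted p = 6.04e-09). In the gibberellin list, 4 of 13 tested genes were higher in each domain, near the shares over all tested genes (only 1 was higher in 32S with a pseudocount of 5), with the receptor GID1B and the synthesis enzyme GA3 on the 32E side and the early synthesis enzyme GA2 (AT1G79460) on the 32S side, with 15.4, 12.1 and 19.0 FPKM in 32E, against 76.3, 95.6 and 90.7 FPKM in 32S (log2 fold change -2.44 ± 0.15, adjusted p = 5.28e-08).

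**Figure D3:**
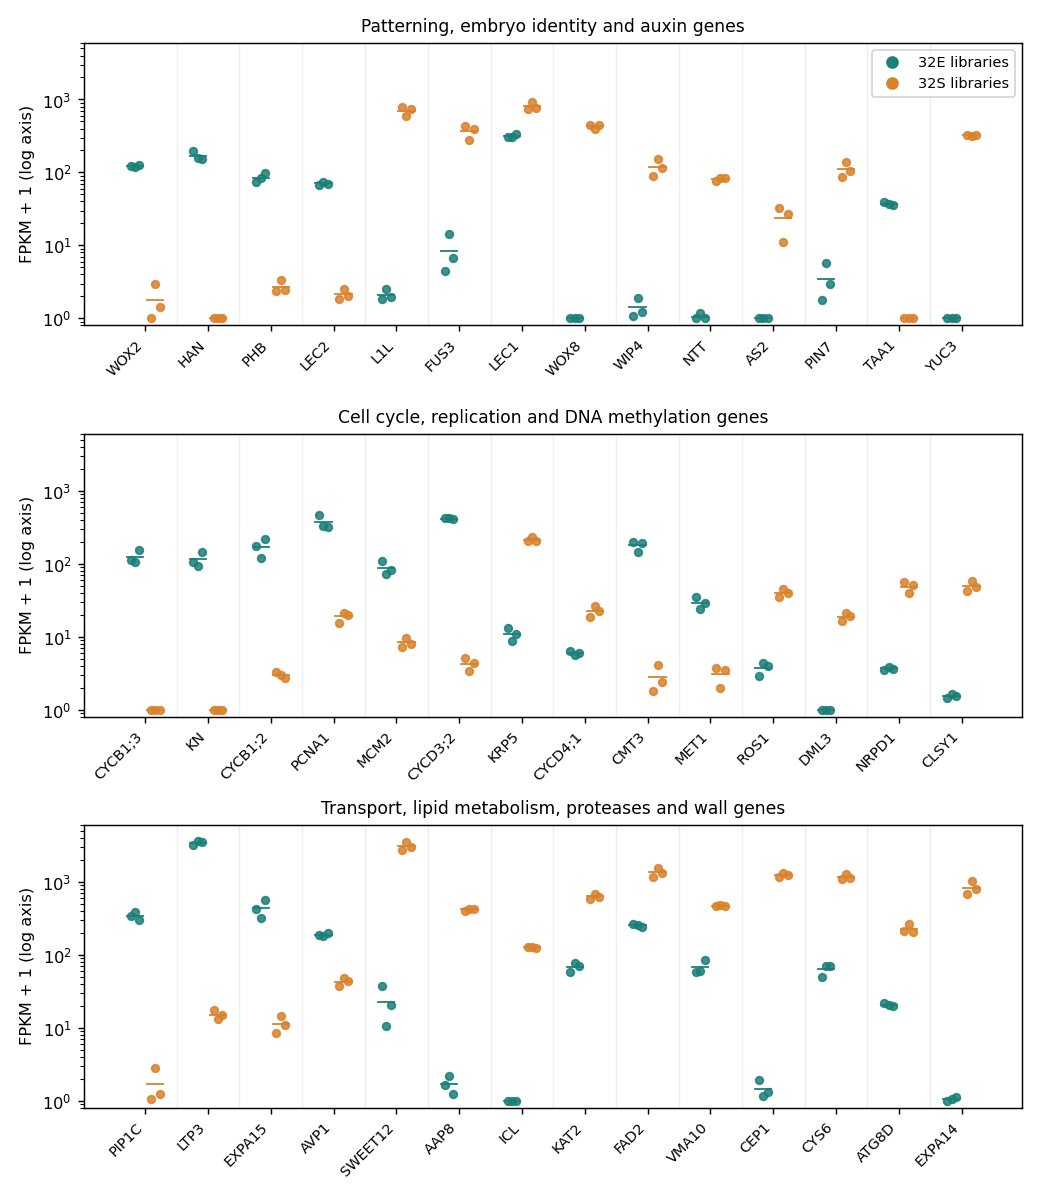
FPKM + 1 (log axis) of 42 genes in each of the 3 32E libraries (left of each pair) and 3 32S libraries (right), with a bar at the mean. A value of 1 is a gene listed at 0. Genes of related function, such as TAA1 and YUC3 or LEC2 and FUS3, lie on opposite sides, and for every gene shown the groups do not overlap.

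Cell division genes were almost uniformly higher in 32E. Of 34 tested mitosis and cytokinesis genes, 33 were higher in 32E, none was higher in 32S by limma (0 at an unadjusted p under 0.05) and 1, CYCA2;1, had no call (median 4.21). All tested genes had shares of 23.8% higher in 32E and 22.6% higher in 32S. The B-type cyclin CYCB1;3 (AT3G11520) had 113, 106 and 153 FPKM in 32E and was listed at 0 in all 3 32S libraries (adjusted p = 5.99e-08). KN (AT1G08560), the syntaxin of the cell plate, had 104, 92.4 and 144 FPKM in 32E and was listed at 0 in all 3 32S libraries. CYCB1;2 (AT5G06150) had 176, 119 and 215 FPKM in 32E, against 2.24, 1.95 and 1.70 FPKM in 32S (log2 fold change 5.81 ± 0.27, adjusted p = 3.87e-09). HIK, a kinesin of the phragmoplast, and TPX2, a spindle assembly factor, were likewise listed at 0 in every 32S library. The mitotic kinases CDKB1;1, CDKB1;2, CDKB2;1 and CDKB2;2 were all higher in 32E, with 32S values up to 15.0 FPKM. CDKA;1 (AT3G48750), the kinase used throughout the cycle, had no call, with 45.1, 52.6 and 53.4 FPKM in 32E, against 48.8, 63.2 and 56.7 FPKM in 32S (adjusted p = 0.283).

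The genes around entry into the cycle were mixed, 9 of 21 higher in 32E and 5 higher in 32S. Over all tested genes the shares were 23.8% and 22.6%, so the 32S count is near its share. CYCD3;2 (AT5G67260), a cyclin that promotes division, had 416, 416 and 410.0 FPKM in 32E, against 4.08, 2.34 and 3.3 FPKM in 32S (log2 fold change 6.63 ± 0.15, adjusted p = 2.81e-11), and CYCD3;1 and CYCD3;3 went with it. CYCD4;1 (AT5G65420) had 5.32, 4.54 and 4.87 FPKM in 32E, against 17.5, 25.3 and 21.2 FPKM in 32S (log2 fold change -1.91 ± 0.27, adjusted p = 6.03e-05). CYCD2;1 (AT2G22490) had 21.9, 25.8 and 20.7 FPKM in 32E, against 21.0, 24.1 and 21.5 FPKM in 32S and no call. KRP5 (AT3G24810), an inhibitor of cyclin-dependent kinases, had 12.02, 7.83 and 9.69 FPKM in 32E, against 206, 231 and 202 FPKM in 32S (log2 fold change -4.32 ± 0.18, adjusted p = 1.67e-09). The inhibitors KRP2 and SIM and the endocycle activator CCS52A1 were also higher in 32S. KRP3 (AT5G48820) was the exception among the strongly changed inhibitors, with 60.1, 49.0 and 45.3 FPKM in 32E, against 0, 1.56 and 0.61 FPKM in 32S (log2 fold change 5.02 ± 0.42, adjusted p = 6.83e-07).

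DNA replication genes were higher in 32E in 29 of 34 tested cases (median 2.37), against 23.8% of all tested genes. PCNA1 (AT1G07370), the sliding clamp, had 465, 325 and 321 FPKM in 32E, against 14.6, 20.3 and 18.9 FPKM in 32S (log2 fold change 4.28 ± 0.15, adjusted p = 5.02e-10). All 6 subunits of the MCM helicase were higher in 32E, with MCM2 (AT1G44900) at 107, 71.5 and 80.6 FPKM in 32E, against 6.25, 8.70 and 7.03 FPKM in 32S (log2 fold change 3.38 ± 0.21, adjusted p = 4.28e-08). ORC6 (AT1G26840) and CDT1B, which load the helicase, had the largest folds, ORC6 with 106, 90.5 and 83.8 FPKM in 32E, against 1.65, 5.95 and 3.63 FPKM in 32S (log2 fold change 4.42 ± 0.27, adjusted p = 3.39e-08). The exception was RNR2A (AT3G23580), a small subunit of ribonucleotide reductase, with 6.32, 4.97 and 6.27 FPKM in 32E, against 44.4, 53.0 and 48.8 FPKM in 32S (log2 fold change -2.86 ± 0.33, adjusted p = 1.01e-05). TSO2 (AT3G27060), the other small subunit in the list, had 148, 153 and 156 FPKM in 32E, against 18.5, 6.32 and 14.6 FPKM in 32S (log2 fold change 3.55 ± 0.27, adjusted p = 2.24e-07). FAS2, ORC4, DPB and E2FB had no call.

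The E2F site, TTTCCCGC or TTTGGCGC on either strand, is the element through which E2F factors act on replication genes. In the 250 bases before the annotated gene start it was matched in 0.958% of 26711 promoters, in 2.01% of those of genes higher in 32E in 0.714% of those of genes higher in 32S and in 0.943% of those of tested genes with no call. In the replication list it was matched in 11 of 34 (32.4%), and all 11 of those genes were higher in 32E: MCM2, MCM3, MCM4 (AT2G16440), MCM5, MCM6 (AT5G44635), ORC1A, ORC2, ORC3, ICU2, RBR1 and FAS1 (AT1G65470). With or without a match, 29 of the 34 were higher in 32E, so this count does not set the matched genes apart within the list. A match is a description of the sequence, not a site. The windows of the 4 with the largest folds, none of which overlaps an annotated exon, are printed here from RefSeq TAIR10.1 (5′ to 3′ on the strand of the gene, the matched letters in capitals), to show where the match lies. It starts 14, 46 and 35 bases before the gene start in MCM2, MCM6 and MCM4, and 128 and 67 bases before it in FAS1, a chromatin assembly factor subunit. MCM6 had 70.6, 57.0 and 52.1 FPKM in 32E, against 2.94, 8.03 and 4.67 FPKM in 32S, and MCM4 had 76.5, 52.8 and 59.1 FPKM in 32E, against 5.74, 13.4 and 7.91 FPKM in 32S. FAS1 had 22.0, 18.1 and 22.7 FPKM in 32E, against 1.60, 2.14 and 1.62 FPKM in 32S.
MCM2 (chr1:16969964-16970213, plus strand): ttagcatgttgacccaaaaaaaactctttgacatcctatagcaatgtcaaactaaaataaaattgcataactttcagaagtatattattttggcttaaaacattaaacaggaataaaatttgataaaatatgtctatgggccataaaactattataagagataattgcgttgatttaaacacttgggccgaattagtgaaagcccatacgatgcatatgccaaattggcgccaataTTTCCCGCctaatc
MCM6 (chr5:18010668-18010917, minus strand): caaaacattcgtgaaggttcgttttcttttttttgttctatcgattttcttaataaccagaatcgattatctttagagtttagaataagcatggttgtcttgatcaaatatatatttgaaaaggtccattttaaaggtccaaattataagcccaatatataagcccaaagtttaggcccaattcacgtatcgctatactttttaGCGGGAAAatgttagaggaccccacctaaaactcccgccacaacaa
FAS1 (chr1:24324092-24324341, minus strand): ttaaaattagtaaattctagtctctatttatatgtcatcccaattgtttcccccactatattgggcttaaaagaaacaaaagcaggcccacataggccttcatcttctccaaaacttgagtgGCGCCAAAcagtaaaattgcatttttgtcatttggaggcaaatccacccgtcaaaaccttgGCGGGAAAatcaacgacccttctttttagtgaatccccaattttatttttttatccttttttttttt
MCM4 (chr2:7130730-7130979, minus strand): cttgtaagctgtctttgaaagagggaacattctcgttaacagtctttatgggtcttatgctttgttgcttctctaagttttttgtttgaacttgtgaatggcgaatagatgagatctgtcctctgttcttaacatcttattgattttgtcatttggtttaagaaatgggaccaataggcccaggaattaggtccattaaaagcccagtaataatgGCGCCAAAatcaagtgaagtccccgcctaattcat

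Of 37 tested histone genes, 31 were higher in 32E and 1 higher in 32S (median 2.50), against 23.8% and 22.6% of all tested genes. Together the histone genes made up 1.46 to 1.73% of the FPKM sum in 32E and 0.371 to 0.391% in 32S. HTB2 (AT5G22880), an H2B gene, had 795, 738 and 1074 FPKM in 32E, against 17.3, 16.8 and 14.6 FPKM in 32S (log2 fold change 5.64 ± 0.14, adjusted p = 4.92e-11). HTR12 (AT1G01370), the centromeric H3, had 125, 94.9 and 119.5 FPKM in 32E, against 0.79, 2.44 and 0.73 FPKM in 32S (log2 fold change 5.69 ± 0.23, adjusted p = 1.24e-09). The replication-independent H3.3 genes AT4G40030, AT4G40040 and AT5G10980 had no call, AT4G40040 with 951, 1101 and 1184 FPKM in 32E, against 633, 698 and 623 FPKM in 32S. HTA12 (AT5G02560) was the gene higher in 32S, with 3.46, 2.60 and 2.52 FPKM in 32E, against 47.0, 66.1 and 43.7 FPKM in 32S (log2 fold change -3.77 ± 0.21, adjusted p = 1.75e-08). Many histone genes are near-identical copies, among which short reads may be shared, so single members are uncertain.

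Of 45 tested methylation, Polycomb and small RNA genes, 17 were higher in 32E and 10 higher in 32S (median 0.48). Over all tested genes the shares were 23.8% and 22.6%, so the 32S count does not set this list apart. The members are described here by role, a grouping made after their values were seen. CMT3 (AT1G69770), which methylates CHG sites, had 195, 144 and 189 FPKM in 32E, against 0.81, 3.06 and 1.38 FPKM in 32S (log2 fold change 6.08 ± 0.23, adjusted p = 8.85e-10). MET1 (AT5G49160), which maintains CG methylation, had 34.3, 22.6 and 27.9 FPKM in 32E, against 2.71, 0.95 and 2.51 FPKM in 32S (log2 fold change 3.29 ± 0.24, adjusted p = 1.84e-07). The chromatin remodeller DDM1 and the cofactors VIM1 (AT1G57820) and VIM3 were also higher in 32E. The call of VIM1 was lost without 32E replicate 1 (log2 fold change 0.95, adjusted p = 1.78e-06) or 32S replicate 1 (log2 fold change 0.97, adjusted p = 1.43e-06). The glycosylases that remove methylated bases were higher in 32S: ROS1 (AT2G36490) had 1.91, 3.32 and 2.94 FPKM in 32E, against 33.9, 43.4 and 38.7 FPKM in 32S (log2 fold change -3.43 ± 0.29, adjusted p = 7.11e-07), DML2 (AT3G10010) had 0.05, 0.42 and 0.06 FPKM in 32E, against 18.3, 26.4 and 21.8 FPKM in 32S (log2 fold change -4.30 ± 0.40, adjusted p = 1.58e-06), and DML3 (AT4G34060) was listed at 0 in all 3 32E libraries and at 15.4, 19.8 and 18.1 FPKM in 32S. DME (AT5G04560) had 3.59, 5.17 and 4.37 FPKM in 32E, against 7.94, 17.56 and 10.9 FPKM in 32S (log2 fold change -1.23 ± 0.28, adjusted p = 0.0019), a call lost without 32S replicate 2 (log2 fold change -0.95, adjusted p = 0.0045). Several genes of the RNA-directed branch were higher in 32S, with NRPD1 (AT1G63020), the largest subunit of RNA polymerase IV, at 2.53, 2.82 and 2.61 FPKM in 32E, against 54.1, 38.7 and 49.7 FPKM in 32S (log2 fold change -3.72 ± 0.14, adjusted p = 9.21e-10). Its partner CLSY1 (AT3G42670) had 0.46, 0.61 and 0.51 FPKM in 32E, against 41.1, 56.3 and 46.1 FPKM in 32S (log2 fold change -4.99 ± 0.18, adjusted p = 5.35e-10). DRM2 (AT5G14620), the methyltransferase of that branch, had 26.0, 27.7 and 28.9 FPKM in 32E, against 72.6, 87.7 and 81.4 FPKM in 32S (log2 fold change -1.51 ± 0.11, adjusted p = 1.41e-07). AGO4 (AT2G27040) had 185, 173 and 189 FPKM in 32E, against 121, 146 and 135 FPKM in 32S and no call. The Argonautes AGO5, AGO9 and AGO10 were higher in 32E and AGO7 in 32S.

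Among the families examined, ribosomal proteins had the most calls. Of 253 tested genes whose product is named a ribosomal protein, 196 were higher in 32E, 8 were higher in 32S and 49 had no call (median 2.14). Their FPKM summed to 21.2 to 22.9% of the library in 32E and 3.61 to 4.80% in 32S. By calls, 23.8% of all tested genes were higher in 32E and 22.6% higher in 32S. AT5G15200, an S4 protein of the small subunit, had 4698, 4725 and 5116 FPKM in 32E, against 647, 897 and 706 FPKM in 32S (log2 fold change 2.70 ± 0.11, adjusted p = 1.82e-09). EMB2296 (AT2G18020), an L2 protein of the large subunit, had 3376, 3485 and 3481 FPKM in 32E, against 553, 901 and 619 FPKM in 32S (log2 fold change 2.35 ± 0.16, adjusted p = 8.47e-08). The 8 genes higher in 32S included 2 named only as of the L18ae family and 2 of the S19 family. One was AT3G14595, with 3.27, 6.10 and 2.65 FPKM in 32E, against 176, 123 and 155 FPKM in 32S. FPKM is relative to the whole library, so the shares of all groups are tied to each other. Scaling by median ratios in place of the deposited values gave 3922 genes higher in 32E and 4108 higher in 32S.

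The site II element, TGGGCC or TGGGCT on either strand, is known from ribosomal protein promoters, as is the telo box AAACCCTAA. Site II was matched in 59.9% of the ribosomal protein windows, in 31.7% of the promoters of genes higher in 32E, in 19.3% of those higher in 32S, in 24.9% of those of tested genes with no call and in 19.4% of all promoters, which include 9.76% for genes not tested. The telo box was matched in 7.87% of the ribosomal protein windows in 2.28% of those of tested genes with no call and in 2.58% of all. The windows of AT5G15200 and EMB2296, the most abundant ribosomal protein genes with a match and no overlapping exon, are shown with site II in capitals. AT5G15200 has 4 matches and EMB2296 has 2.
AT5G15200 (chr5:4936430-4936679, minus strand): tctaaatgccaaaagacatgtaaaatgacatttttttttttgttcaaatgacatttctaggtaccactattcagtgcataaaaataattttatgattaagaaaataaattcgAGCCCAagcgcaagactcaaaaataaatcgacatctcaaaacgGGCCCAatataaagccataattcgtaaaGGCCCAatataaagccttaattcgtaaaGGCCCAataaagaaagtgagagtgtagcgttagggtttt
EMB2296 (chr2:7836817-7837066, plus strand): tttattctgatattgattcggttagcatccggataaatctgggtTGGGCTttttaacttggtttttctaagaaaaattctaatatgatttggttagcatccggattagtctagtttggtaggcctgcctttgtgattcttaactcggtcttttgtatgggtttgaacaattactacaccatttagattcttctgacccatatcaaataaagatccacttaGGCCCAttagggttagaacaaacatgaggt

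**Figure D4:**
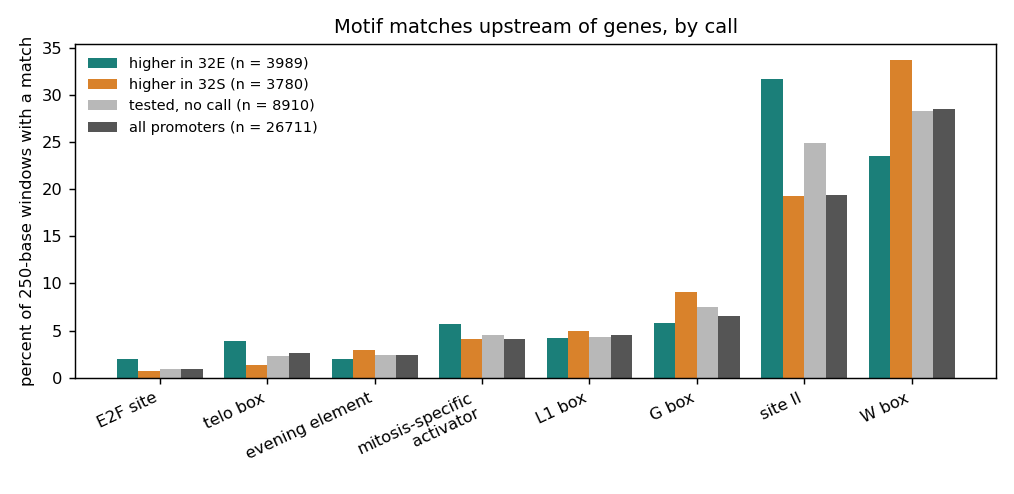
Percent of 250-base windows before the gene start that hold each of 8 motifs (vertical axis), for genes higher in 32E, genes higher in 32S, tested genes with no call, and all promoters of the annotation. Site II, the telo box and the E2F site are more frequent among genes higher in 32E, and the W box and G box among genes higher in 32S.

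Both strands were searched for every motif, and matches of different motifs were allowed to overlap. The W box, TTGACC or TTGACT, which WRKY factors bind, was matched in 23.5% of promoters of genes higher in 32E, 33.7% of those higher in 32S, 28.3% of those of tested genes with no call and 28.5% of all. The G box, CACGTG, was matched in 5.77%, 9.05%, 7.54% and 6.58% of these sets. The mitosis-specific activator form CNNAACGG was matched in 14.7% of the mitosis list and 4.08% of all promoters. The L1 box, TAAATGCA or TAAATGTA, associated with epidermal genes, was matched in 5 of 25 protoderm promoters, those of GSO1, HDG2, ABCG11, FDH and MYB96, and in 4.51% of all. It was not in these windows of PDF1 or ATML1.

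**Figure D5:**
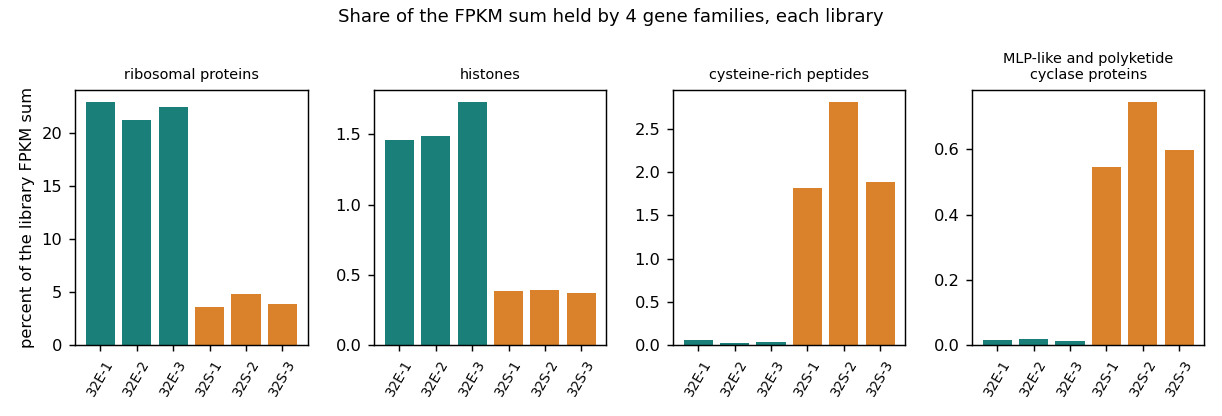
Percent of the FPKM sum of each library held by ribosomal proteins, core and linker histones, small cysteine-rich peptides and the MLP-like and polyketide cyclase family; bars are single libraries and each panel has its own scale from 0. Ribosomal proteins hold 21.2 to 22.9% in 32E and 3.61 to 4.80% in 32S, and cysteine-rich peptides hold 0.0316 to 0.059% in 32E and 1.81 to 2.81% in 32S.

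Small cysteine-rich peptides, a family of secreted signals and defence proteins, were a feature of 32S. Of 379 annotated members only 53 were tested, of which 2 were higher in 32E, 25 were higher in 32S and 26 had no call (median -1.44). All tested genes had shares of 23.8% higher in 32E and 22.6% higher in 32S. The 32S count was 15 with a pseudocount of 5, and 11 of 27 when genes listed at 0 in any of the 6 libraries were left out, while without the filter the median over 104 members was -0.42. A few members carried nearly all of the signal. LCR68 (AT2G02130) was the most abundant after LCR48, with 262, 115 and 171 FPKM in 32E, against 2835, 3978 and 2738 FPKM in 32S (log2 fold change -4.17 ± 0.24, adjusted p = 2.35e-08). SCRL26 (AT4G22105), related to the pollen ligand of self-incompatibility, had 0.47, 0.45 and 0 FPKM in 32E, against 465, 1009 and 508 FPKM in 32S (log2 fold change -8.91 ± 0.26, adjusted p = 1.31e-10). The defensin-like AT1G77525 had 49.4, 28.4 and 44.5 FPKM in 32E, against 1362, 2322 and 1367 FPKM in 32S (log2 fold change -5.32 ± 0.22, adjusted p = 1.77e-09). One defensin-like gene, AT4G22235, had the opposite pattern: it had 17.3, 14.4 and 15.6 FPKM in 32E and was listed at 0 in all 3 32S libraries. The MLP-like and polyketide cyclase family, small proteins with a cavity for lipids or hormones, was higher in 32E in none of 13 tested cases and higher in 32S in 10. It includes PYR1 (AT4G17870), an abscisic acid receptor, with 5.86, 6.18 and 4.98 FPKM in 32E, against 39.5, 50.9 and 37.1 FPKM in 32S (log2 fold change -2.70 ± 0.19, adjusted p = 1.36e-07).

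Lipid transfer proteins were split. Of 128 members 28 were tested, of which 5 were higher in 32E and 13 higher in 32S. Over all tested genes the shares were 23.8% and 22.6%. Without the filter, 5 and 14 of 61 were called and the median was -0.21, against -1.06 with it. LTP3 and LTP4 (AT5G59310) led the 32E side, with LTP4 at 54.2, 132 and 65.5 FPKM in 32E, against 0.74, 0 and 0 FPKM in 32S (log2 fold change 6.03 ± 0.51, adjusted p = 6.30e-07). AT5G38170 and AT4G30880 led the 32S side, AT5G38170 with 14.8, 15.5 and 23.3 FPKM in 32E, against 2318, 4970.4 and 2674 FPKM in 32S (log2 fold change -7.40 ± 0.27, adjusted p = 5.64e-10) and AT4G30880 with 2.84, 2.99 and 1.64 FPKM in 32E, against 2055, 2327 and 1889.5 FPKM in 32S (log2 fold change -9.25 ± 0.17, adjusted p = 7.24e-12). Proteins of this family carry lipids, many of them outside the cell.

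Carriers of sugars and amino acids were higher in 32E in 2 of 17 tested cases, against 23.8% of all tested genes. They were higher in 32S in 11, against 22.6% (median -2.24). The calls were the same in number without the filter, but the median depended on it, being 0.0 over 23 members with no filter and -5.25 over 12 with FPKM above 5 in at least 3 libraries. SWEET12 (AT5G23660), a sucrose exporter, was the most abundant, with 36.0, 9.53 and 19.3 FPKM in 32E, against 2719, 3489 and 3027 FPKM in 32S (log2 fold change -7.26 ± 0.32, adjusted p = 2.73e-09), and every 32S library lay far above the 32E libraries. SWEET5, SWEET8 and SWEET15 (AT5G13170) were also higher in 32S, and SWEET15 was listed at 0 in all 3 32E libraries and at 42.3, 60.9 and 49.2 FPKM in 32S. SUC5 (AT1G71890), a sucrose and biotin importer, had 4.57, 15.1 and 5.87 FPKM in 32E, against 529, 463 and 521 FPKM in 32S (log2 fold change -5.89 ± 0.32, adjusted p = 1.40e-08). The amino acid importer AAP8 (AT1G10010) averaged 0.68 ± 0.45 FPKM in 32E, against 418 ± 17.56 FPKM in 32S (SD, n = 3 each, limma adjusted p = 5.61e-11). AAP1 (AT1G58360) had 10.9, 46.4 and 18.3 FPKM in 32E, against 252, 261 and 261 FPKM in 32S (log2 fold change -3.55 ± 0.52, adjusted p = 7.29e-05). SUS1 (AT5G20830), a sucrose synthase that cleaves imported sucrose, had 0.40, 0.17 and 0.28 FPKM in 32E, against 33.0, 37.5 and 35.6 FPKM in 32S (log2 fold change -4.83 ± 0.48, adjusted p = 2.98e-06). On the 32E side were the importers SUC1 and SUC2 (AT1G22710), at low levels, SUC2 with 9.12, 6.13 and 2.74 FPKM in 32E, against 0.04, 0 and 0 FPKM in 32S (log2 fold change 2.67 ± 0.41, adjusted p = 1.24e-04).

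The machinery that breaks down fatty acids was higher in 32E in none of 24 tested genes by limma (1 at an unadjusted p under 0.05) and higher in 32S in 19 (median -2.18). All tested genes had shares of 23.8% higher in 32E and 22.6% higher in 32S. ICL (AT3G21720), the glyoxylate cycle enzyme isocitrate lyase, was listed at 0 in all 3 32E libraries and at 127, 125 and 123 FPKM in 32S (adjusted p = 3.72e-11), whereas malate synthase MLS (AT5G03860), the other enzyme particular to that cycle, was listed at 0 in all 3 32E libraries and at 0.50, 0.85 and 0.67 FPKM in 32S. KAT2 (AT2G33150), the main thiolase of beta-oxidation, had 57.2, 75.9 and 68.1 FPKM in 32E, against 589, 674 and 628 FPKM in 32S (log2 fold change -3.22 ± 0.14, adjusted p = 2.63e-09). PCK1 (AT4G37870), which turns the carbon toward sugar, had 15.6, 34.7 and 25.2 FPKM in 32E, against 668, 511 and 641 FPKM in 32S (log2 fold change -4.59 ± 0.26, adjusted p = 2.20e-08). The acyl-CoA oxidases ACX1 to ACX5 were all higher in 32S. The oil lipase SDP1 (AT5G04040) had 6.14, 7.21 and 8.30 FPKM in 32E, against 13.2, 11.4 and 12.7 FPKM in 32S and no call, as its difference was below the fold threshold (adjusted p = 0.00967).

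Fatty acid synthesis was less divided, with 1 of 21 tested genes higher in 32E, 6 higher in 32S and 14 not called (median -0.55). All tested genes had shares of 23.8% and 22.6%, so the 32S count does not set this list apart. FAD2 (AT3G12120), the oleate desaturase, had 261, 259 and 242 FPKM in 32E, against 1167, 1552 and 1316 FPKM in 32S (log2 fold change -2.39 ± 0.11, adjusted p = 3.52e-09). FAD3 (AT2G29980), the next desaturase, had 0.67, 1.68 and 1.59 FPKM in 32E, against 57.2, 70.6 and 60.2 FPKM in 32S (log2 fold change -4.81 ± 0.26, adjusted p = 1.21e-08). The acyl carrier ACP1 (AT3G05020) had 181, 169.8 and 182 FPKM in 32E, against 1484, 1668 and 1468 FPKM in 32S (log2 fold change -3.11 ± 0.11, adjusted p = 3.72e-10), while its relatives ACP2 (AT1G54580) and ACP3 had no call, ACP2 with 437, 386 and 437 FPKM in 32E, against 342, 463 and 355 FPKM in 32S. WRI1 (AT3G54320), an AP2 factor that activates oil synthesis, had 25.6, 37.3 and 31.0 FPKM in 32E, against 60.1, 56.9 and 61.6 FPKM in 32S and did not pass (adjusted p = 0.0212).

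Subunits of the vacuolar proton pump were higher in 32S in 17 of 27 tested genes (median -1.24), against 22.6% of all tested genes. VMA10 (AT3G01390), a G subunit, had 56.3, 59.0 and 83.8 FPKM in 32E, against 466, 479.9 and 465 FPKM in 32S (log2 fold change -2.83 ± 0.17, adjusted p = 3.64e-08). The single-chain pump AVP1 (AT1G15690) was the 1 gene of the list higher in 32E, with 188, 179 and 195 FPKM in 32E, against 36.1, 47.4 and 42.4 FPKM in 32S (log2 fold change 2.14 ± 0.10, adjusted p = 4.31e-09). Water channels of the plasma membrane lay on that side too. PIP1C had 340.1, 383 and 302 FPKM in 32E, against 0.06, 1.80 and 0.25 FPKM in 32S (log2 fold change 7.78 ± 0.31, adjusted p = 1.22e-09). PIP3 (AT4G35100) had 635, 819 and 645 FPKM in 32E, against 22.1, 0 and 16.2 FPKM in 32S (log2 fold change 6.56 ± 0.87, adjusted p = 3.42e-05). Of 23 listed aquaporins only 9 were tested, of which 5 were higher in 32E, against 23.8% of all tested genes. Without the filter, 5 of 21 were higher in 32E and the median was 0.39, against 2.36 with it. The seed tonoplast channel BETA-TIP (AT1G17810) had 1.42, 2.60 and 1.42 FPKM in 32E, against 5.10, 10.8 and 7.12 FPKM in 32S (log2 fold change -1.60 ± 0.42, adjusted p = 0.00511), a call lost without 32E replicate 1 (adjusted p = 0.0207) or 3 (adjusted p = 0.0208) and without 32S replicate 2 (log2 fold change -1.35, adjusted p = 0.022) or 3 (log2 fold change -1.62, adjusted p = 0.0144).

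Of 26 listed proteases, protease inhibitors and regulators of cell death, only 11 were tested. None was higher in 32E by limma (0 at an unadjusted p under 0.05) and 10 were higher in 32S (median -3.31). All tested genes had shares of 23.8% higher in 32E and 22.6% higher in 32S. Without the filter, 11 of 20 were higher in 32S and the median was -1.94. CEP1 (AT5G50260), a papain-type protease of dying tissues, had 0.91, 0.16 and 0.32 FPKM in 32E, against 1147, 1312 and 1228 FPKM in 32S (log2 fold change -9.75 ± 0.23, adjusted p = 3.56e-11). The metacaspases MC1, MC2 (AT4G25110) and MC4 were higher in 32S, MC2 with 0.27, 0.59 and 0.62 FPKM in 32E, against 58.4, 35.1 and 52.5 FPKM in 32S (log2 fold change -5.03 ± 0.26, adjusted p = 1.00e-08). ALP (aleurain), a vacuolar protease, had 3.36, 3.18 and 1.97 FPKM in 32E, against 187, 184 and 197 FPKM in 32S (log2 fold change -5.65 ± 0.20, adjusted p = 5.55e-10). The protease inhibitors of the list moved with them: CYS6 (AT3G12490), a cystatin, had 48.8, 69.2 and 68.4 FPKM in 32E, against 1097, 1294 and 1122 FPKM in 32S (log2 fold change -4.23 ± 0.14, adjusted p = 3.02e-10). CYS1 (AT5G12140) had 68.6, 79.5 and 86.4 FPKM in 32E, against 532, 632 and 529 FPKM in 32S (log2 fold change -2.84 ± 0.11, adjusted p = 8.29e-10). BETA-VPE (AT1G62710) had 9.24, 5.54 and 5.95 FPKM in 32E, against 9.55, 19.9 and 12.4 FPKM in 32S and no call. Autophagy genes were higher in 32E in none of 13 tested cases (0 at an unadjusted p under 0.05) and higher in 32S in 10 (median -2.12). ATG8D (AT2G05630), a protein of the autophagosome membrane, had 20.9, 19.5 and 18.9 FPKM in 32E, against 209, 262 and 202 FPKM in 32S (log2 fold change -3.43 ± 0.11, adjusted p = 3.22e-10). The cargo receptor NBR1 (AT4G24690) had 69.5, 66.7 and 64.7 FPKM in 32E, against 241, 197 and 239.6 FPKM in 32S (log2 fold change -1.73 ± 0.10, adjusted p = 1.84e-08). ATG7 (AT5G45900), the enzyme that activates ATG8, had 13.1, 10.6 and 17.8 FPKM in 32E, against 12.3, 17.9 and 15.4 FPKM in 32S and no call. ATG8E (AT2G45170) had 10.4, 11.9 and 8.34 FPKM in 32E, against 165, 34.7 and 128 FPKM in 32S (log2 fold change -3.04 ± 0.50, adjusted p = 1.83e-04), with 32S replicate 2 well below the other 32S libraries.

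Of 23 tested wall genes, 4 were higher in 32E and 7 higher in 32S, shares not far from those of all tested genes (23.8% and 22.6%), and 4 were higher in 32S with a pseudocount of 5. Expansins loosen walls during growth, and members were found at either extreme. EXPA15 (AT2G03090) had 417, 322 and 556 FPKM in 32E, against 7.46, 13.7 and 9.86 FPKM in 32S (log2 fold change 5.25 ± 0.35, adjusted p = 7.22e-08). EXPA14 (AT5G56320) had 0, 0.05 and 0.12 FPKM in 32E, against 679.8, 1017 and 784 FPKM in 32S (log2 fold change -9.59 ± 0.34, adjusted p = 4.37e-10). UGD3 (AT5G15490), which supplies a wall sugar precursor, had 27.1, 38.2 and 29.9 FPKM in 32E, against 291, 279 and 291 FPKM in 32S (log2 fold change -3.15 ± 0.13, adjusted p = 1.24e-09). Cellulose synthase genes had smaller differences, with CESA1 (AT4G32410) at 12.7, 15.8 and 21.2 FPKM in 32E, against 16.3, 15.7 and 17.8 FPKM in 32S and CESA3 (AT5G05170) at 12.9, 16.6 and 17.42 FPKM in 32E, against 44.8, 24.7 and 40.1 FPKM in 32S (log2 fold change -1.14 ± 0.20, adjusted p = 3.30e-04). The call of CESA3 was lost without 32S replicate 1 (log2 fold change -0.97, adjusted p = 0.00165).

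Nuclear photosynthesis genes were low in both groups. Of 35 tested genes 2 were higher in 32E and 17 higher in 32S (median -1.60), against 23.8% and 22.6% of all tested genes. In the model of the 6 libraries alone 0 were higher in 32E and 11 higher in 32S, and without 32E replicate 2 the counts were 0 and 21, and the median was -0.39 over 48 genes without the filter. LHCB5 (AT4G10340), a light-harvesting protein, had 1.25, 8.60 and 1.43 FPKM in 32E, against 37.0, 42.3 and 39.9 FPKM in 32S (log2 fold change -3.44 ± 0.45, adjusted p = 2.72e-05). LHCA1 (AT3G54890) had 7.54, 23.7 and 11.6 FPKM in 32E, against 70.7, 48.4 and 62.1 FPKM in 32S (log2 fold change -2.13 ± 0.34, adjusted p = 1.40e-04). RBCS1A (AT1G67090), a small subunit of Rubisco, had 0.86, 23.0 and 8.12 FPKM in 32E, against 7.34, 5.32 and 3.96 FPKM in 32S and no call. In 32E, replicate 2 was the highest for each of these genes.

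Stress genes, which handling of tissue can induce, varied within each group. None of the 9 heat shock genes was called by limma, 5 being at an unadjusted p under 0.05 on the 32S side, and their FPKM summed to 880 to 4338 in 32E and 2901 to 10477 in 32S. HSP17.6A (AT5G12030) had 1309.6, 769 and 221 FPKM in 32E, against 3287, 837 and 2508 FPKM in 32S, so its groups overlapped, and 32S replicate 2 was well below replicates 1 and 3. Without 32S replicate 2, 5 of the 9 were called higher in 32S, HSP17.6A among them (log2 fold change -2.24, adjusted p = 0.00799). In the wounding, touch and jasmonate list, 3 of 16 were higher in 32E and 4 higher in 32S. These shares are near the 23.8% and 22.6% of all tested genes, so the counts do not set this list apart. The 32S count was 2 without 32E replicate 1, 32S replicate 1 or 32S replicate 2, and 1 without 32S replicate 3 or in the model of the 6 libraries alone. JAZ1 (AT1G19180), a repressor of jasmonate responses, had 2.84, 25.5 and 69.5 FPKM in 32E, against 133, 210.3 and 154 FPKM in 32S (log2 fold change -3.09 ± 0.77, adjusted p = 0.00372), with scattered 32E values, and its call was lost without 32S replicate 2 (log2 fold change -2.90, adjusted p = 0.0153) or 3 (log2 fold change -3.13, adjusted p = 0.0112). TCH4 (AT5G57560), a touch-responsive wall enzyme, had 187, 372 and 388 FPKM in 32E, against 819, 887 and 843 FPKM in 32S (adjusted p = 1.12e-04). Reference genes were not all even: ACT7 (AT5G09810) had 1044, 1153 and 1169 FPKM in 32E, against 444, 396 and 430.2 FPKM in 32S (adjusted p = 1.92e-08), and UBQ10 (AT4G05320) had 282, 285 and 187 FPKM in 32E, against 1113, 498 and 909 FPKM in 32S (log2 fold change -1.69 ± 0.25, adjusted p = 8.71e-05). PP2AA3 (AT1G13320) had 54.3, 56.3 and 53.2 FPKM in 32E, against 50.4, 53.0 and 51.7 FPKM in 32S and no call. The part of handling in the other differences was not tested.

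Transcription factors as a class were called about as often in either direction. Of 902 tested genes in the study's own list of transcription factors, which is no independent choice, 242 were higher in 32E and 195 higher in 32S (median 0.13). These shares are near the 23.8% and 22.6% of all tested genes. The bHLH family had 24 higher in 32E and 4 higher in 32S among 64, and the Dof family 9 and 3 among 18. The bZIP family had 3 and 13 among 47, the C2H2 zinc finger family 7 and 14 among 41, and the CO-like family 0 and 5 among 10. HDA3 (AT3G44750), a nucleolar histone deacetylase listed with the C2H2 family, had 612, 575 and 597 FPKM in 32E, against 13.2, 16.4 and 12.7 FPKM in 32S (log2 fold change 5.31 ± 0.09, adjusted p = 4.80e-12). RKD3 (AT5G66990), an RWP-RK factor, had 134, 92.0 and 86.0 FPKM in 32E and was listed at 0 in all 3 32S libraries. PAN (AT1G68640), a bZIP factor of flower meristems, had 28.4, 44.7 and 43.1 FPKM in 32E and was listed at 0 in all 3 32S libraries. On the suspensor side, WRKY28 (AT4G18170) had 0.06, 1.55 and 1.56 FPKM in 32E, against 165, 167 and 175 FPKM in 32S (log2 fold change -6.48 ± 0.70, adjusted p = 6.00e-06), the homeobox gene HB17 (AT2G01430) had 3.31, 4.48 and 2.95 FPKM in 32E, against 164, 192 and 163 FPKM in 32S (log2 fold change -5.26 ± 0.22, adjusted p = 1.82e-09), and MYB2 (AT2G47190), a factor of dehydration responses, was listed at 0 in all 3 32E libraries and at 97.8, 139 and 108 FPKM in 32S. OBP4 (AT5G60850), a Dof factor that restrains growth, had 0, 0.67 and 0 FPKM in 32E, against 122, 108 and 124 FPKM in 32S (log2 fold change -6.65 ± 0.25, adjusted p = 8.44e-10), the reverse of AT5G66940 in the same family.

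The apical and basal cells of the 1-cell embryo were sequenced in separate libraries, so their fold changes share no library with those above. The calls of both comparisons came from the same fit of all 12 libraries. They thus share its filter and its estimate of the spread of each gene. By the same rule, 3237 genes (19.0%) were higher in AC than in BC and 3131 (18.4%) were higher in BC. Among the 4053 genes higher in 32E, 889 (21.9%) had higher values in AC by this rule and 387 (9.55%) in BC. Among the 3854 higher in 32S, 559 (14.5%) fell on the AC side and 955 (24.8%) on the BC side. Of the genes with no call between 32E and 32S, 19.5% fell on the AC side and 19.5% on the BC side. Most genes called at the 32-cell stage, 2777 of those higher in 32E and 2340 of those higher in 32S, had no call between AC and BC.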

How the data were processed

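RNA of 32E, 32S, AC and BC (3 libraries each) was amplified and sequenced. Per the study's methods, the authors trimmed reads with Cutadapt 1.15, aligned them with Bowtie 2 and estimated expression with RSEM on TAIR10, and the submitters' processing notes also name TopHat2 2.1.1. The deposited values used here were FPKM, which the authors scaled by transcript length and mapped reads. No deposited counts were used, so the study's own count test was not repeated. The labels name 2 kits for library construction and the study's methods 1 of them, NEBNext Ultra DNA. The study aligned reads as unstranded for its lncRNAs and gives no strand setting for the FPKM, so overlapping antisense genes cannot be told apart, and near-identical copies may share reads.

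Values were transformed as log2(FPKM + 1) and fitted in limma 3.58.1 (R 4.3.3) as 4 group means over all 12 libraries, with a trended prior and no scaling between libraries. Genes needed FPKM above 1 in at least 3 of the 12 libraries, and p-values were adjusted by Benjamini-Hochberg over the 17060 genes kept. The script was tested on simulated data. Genes listed at 0 throughout a group are given without a fold change. Genes were named by rule: the 10 with the largest folds, means and differences in each direction, up to 5 of each list in each direction, the extremes of each transcription factor family, lineage markers and list members with no call. Not every gene that this rule names is reported here. Other names were chosen after their values were seen. The members and gene lists were chosen with earlier results of these data known. Symbols, products and promoters (250 bases before the gene start) came from RefSeq TAIR10.1, the promoters with Python 3.11.15. Other pseudocounts, filters, scalings and models, a replicate block and leaving out each library were tried.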

Additional observations from a re-analysis of the deposited data

How the results depend on the processing

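No called gene named in the text changed sign under any alternative that tested it, and both counts of calls stayed within 1.5 times of 4053 (higher in 32E) and 3854 (higher in 32S). Leaving out each library in turn gave 3825 to 4008 genes higher in 32E and 3546 to 4075 higher in 32S, and of the 203 called genes named in the text 2 or 3 lost their call each time. Of the same 203, 8 lost it with a pseudocount of 0.1, 7 with a pseudocount of 5, 4 in the model of the 6 libraries alone and at most 1 under any scaling or the block. A pseudocount of 0.1 gave 4076 and 3638 genes and a pseudocount of 5 gave 3087 and 3143. Median-ratio scaling gave 3922 and 4108, scaling to TPM gave 4186 and 3700, and scaling to the sum without the 20 genes highest in 32S, added after seeing the data, gave 3805 and 4225. Leaving out every gene listed at 0 in any of the 6 libraries gave 3078 and 3238, and 61 named genes could not be fitted there. The model of the 6 libraries alone gave 3915 and 3689.

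Same-numbered 32E and 32S libraries did not deviate together (correlations of 0.066, -0.080 and -0.125). This cannot show whether they came from the same embryos, since parts of the same embryos need not deviate together. With the replicate number as a block, 4029 genes were higher in 32E and 3796 higher in 32S. FPKM without counts leaves the precision of low genes unknown. Counts of several lists moved by over 1.5 times. With a pseudocount of 5, 3 genes of auxin response were higher in 32S and 5 of cytokinin signalling higher in 32E. Leaving out genes listed at 0 left 10 of 18 apical and meristem regulators, 21 of 22 mitosis genes, 3 of 12 cytokinin genes and 3 of 12 genes around cycle entry higher in 32E, and 8 of 16 lipid transfer proteins higher in 32S, since fewer genes were tested. Heat shock genes had no call on all libraries and 5 without 32S replicate 2.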
